A study of Mus musculus with 8 samples.

Results

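The RNA levels of the serpin superfamily were described by clade in cultured fetal liver cells of mice labelled wild type or *Lats1* and *Lats2* mutant. Members were all entries of the deposited gene table whose symbol is Serpin, a clade letter from a to i and a number, which gave 63 of 23471 entries: 25 of clade a, 27 of clade b, 3 of clade e, 2 each of clades f and i, and 1 each of clades c, d, g and h. Hepatoblasts were taken from E14.5 fetal livers of mice on a B6;129 mixed background, and RNA was sequenced from 8 libraries. Cells kept on collagen were called iHBs, cells given oncostatin M at 12.5 ng/ml for 5 days, as the labels have it, were called iHPs (hepatocyte cultures), and cells kept on Matrigel for 14 days were called iBECs (biliary cultures). Control libraries were labelled wild type, with 1 library in each culture. The L1L2_Alb libraries carried a constitutive *Lats1* null allele and a floxed *Lats2* allele with Alb-cre, which deletes in cells that use the albumin promoter (genotype label Lats1-/-;Lats2f/fl;Alb-cre), with 1 library of iHBs, 2 of iHPs and 2 of iBECs. The labels do not say whether libraries came from separate embryos or cultures, so the p-values measure only the spread between these libraries, which may be technical. In the fits with culture and genotype together, that spread also includes how far the genotype difference varied between cultures. No control was replicated.

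Most serpins inhibit serine proteases by offering a loop that the protease cuts, after which the enzyme is trapped in a complex with the serpin. The liver secretes many clade a, c, d, f and g serpins into plasma, where they limit neutrophil elastase, thrombin, plasmin and the first complement and contact proteases. Clade b serpins mostly lack a secretion signal and remain in the cell, where they inhibit granule and lysosomal proteases. Some members inhibit nothing: *Serpinh1* (HSP47) is a collagen chaperone and *Serpina7* carries thyroxine. In the mouse, the genes related to the human alpha-antitrypsin, antichymotrypsin and clade b inhibitors are present as clusters of close copies.

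Values are RPKM, reads per kilobase of gene scaled to the size of the library, and library sizes recovered from the steps of the values ran from 18436865 to 33229075 reads. The pairs of L1L2_Alb libraries differed by far more than counting noise (chi-square per degree of freedom of 150 in iHP and 125 in iBEC). *Lats1* and *Lats2* RNA was not called lower in the libraries labelled L1L2_Alb (log2 fold change 0.44, adjusted p = 0.46, and 0.90, adjusted p = 0.0312, by limma, so that *Lats2* was called higher). *Lats1* was at 22.7 and 7.12 RPKM in L1L2_Alb iHP against 11.2 RPKM in control iHP, and above its control in L1L2_Alb iHB and iBEC. A value per whole gene does not show whether the deleted exons were present, so L1L2_Alb stands below for the label of the libraries. Of 5 biliary markers, *Spp1* was 1706 RPKM in control iHB and 23271 RPKM in control iBEC, and *Sox9* was also higher there, whereas *Krt7*, *Krt19* and *Epcam* were lower in control iBEC than in control iHB. By genotype *Krt7* and *Krt19* were called higher (log2 fold change 2.17, adjusted p = 0.00422, and 1.31, adjusted p = 0.0205, limma) and *Spp1* lower (-1.50, adjusted p = 0.0306), and the part of biliary cells in the clade b levels below was not tested. Of 6 hepatocyte markers, *Alb*, *Ttr* and *Hnf4a* were lower by genotype (adjusted p = 0.0337, 0.00445 and 0.00373, limma), *Tat*, *Apoa1* and *Afp* did not pass the test, and no marker of that list was at 0 in every library. Among the controls, *Alb* was at 2485, 3088 and 6162 RPKM in iHB, iHP and iBEC, and *Hnf4a* at 48.4, 64.4 and 99.5 RPKM. *Ttr*, *Apoa1* and *Tat* were also highest in control iBEC, whereas *Afp* was lowest there, at 779 RPKM. Summed over the 6 hepatocyte markers, levels ran from 8931 to 11844 RPKM in the controls and from 7814 to 13239 RPKM in the L1L2_Alb libraries. *Apoa1* and *Afp* made up most of this sum in L1L2_Alb iHB and iHP, where *Apoa1* was above its controls (8669.7 against 2451 RPKM in iHB), whereas *Alb* was at 524 against 2485 RPKM in iHB and at 568 and 526 against 3088 RPKM in iHP. The part of these markers in the serpin levels below was not tested. In these mixed cultures, fewer cells of a type and less RNA per cell cannot be told apart.

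Only part of the superfamily was transcribed at a measurable level. A group of 7 entries were at 0 in all 8 libraries, namely *Serpina1f*, *Serpinb13*, *Serpinb3a*, *Serpinb3b*, *Serpinb3c*, *Serpinb3d* and *Serpini2*. A further 21 members had values above 0 but a mean under 1 RPKM, with 1.90 RPKM as the highest single value, and were not tested. The remaining 35 entered the tests: 17 of clade a, 9 of clade b, 2 each of clades e and f, and 1 each of clades c, d, g, h and i. Summed over the 63 members, serpins made up 1.91% of the RPKM of the library in control iHB, 3.02% in control iHP and 5.29% in control iBEC. The same share was 0.595% in L1L2_Alb iHB, 0.964% and 0.905% in L1L2_Alb iHP, and 2.44% and 2.75% in L1L2_Alb iBEC, below the control in each culture. Clade a alone held 1.65%, 2.74% and 5.00% in the 3 controls. In L1L2_Alb iHB clade a was down to 0.0737%, below clade b at 0.185%.

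**Figure D1:**
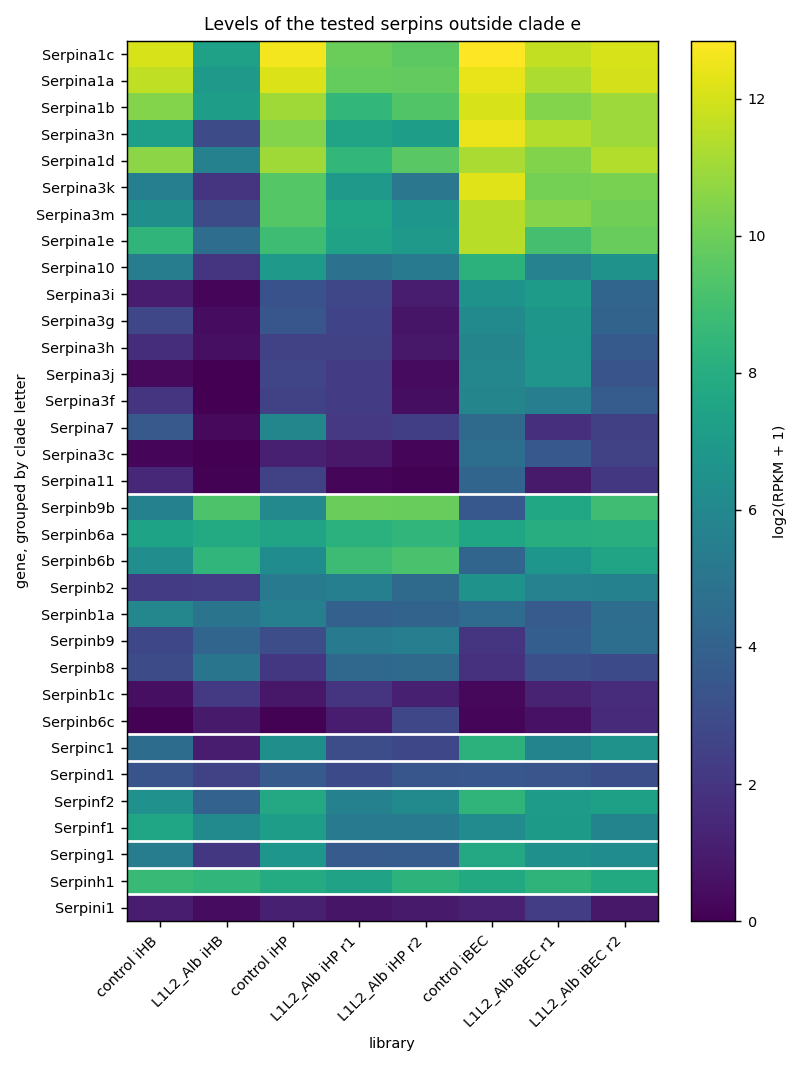
Heat map of log2(RPKM + 1) for the tested serpins outside clade e (rows, grouped by clade letter and ordered by mean level) in the 8 libraries (columns, r1 and r2 being replicates 1 and 2). Most clade a rows are darkest in L1L2_Alb iHB and brightest in control iBEC, while the rows of *Serpinb9b* and *Serpinb6b* are brightest in L1L2_Alb iHP.

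The comparison of genotypes asked which genes differ between libraries labelled with the *Lats1* and *Lats2* alleles and the controls, and it set the 5 L1L2_Alb libraries against the 3 controls with the culture as a block (limma on log2(RPKM + 1), 13421 genes, 4 residual degrees of freedom). Among the genes that passed the test, those of clade a fell and those of clade b rose. Of the 17 tested clade a genes, 10 fell and 0 rose, with a median log2 fold change over all 17 of -2.20. Of the 9 tested clade b genes, 5 rose and 0 fell, with a median of 1.21, and 3 of the 9 tested members of the other clades fell (*Serpinc1*, *Serpinf2* and *Serping1*). *Serpinb1c*, among the 5, and *Serpinb6c*, without a call, were under 1 RPKM in every control. Both entered the test only through the L1L2_Alb libraries. In all, 5 of 35 serpins were called higher and 13 lower at an adjusted p under 0.05. Across all genes, 6.2% were called higher and 3.37% lower, and the median log2 fold change was 0.06. The split of the calls over all genes depended on scaling, with 64.8% higher as deposited, 49.2% with libraries scaled to their upper quartile and 53.1% with quantile-normalized values. Serpins were called 5 higher and 14 lower under the former and 5 higher and 12 lower under the latter.

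Leaving out a culture ended calls in fits of fewer libraries. Without the 3 iHP libraries, 14 of the 18 calls were lost (adjusted p = 0.0502 to 0.242) with fold changes of like size, for example -2.70 against -2.38 for *Serpina10*, -2.69 against -2.99 for *Serpinc1* and 1.92 against 2.07 for *Serpinb9*, and 113 genes of the whole table were called higher and 19 lower. Without the iHB libraries, 7 calls were lost (adjusted p = 0.0505 to 0.205). *Serpinb9b*, *Serpinb6b* and *Serpina7* were called under each of the 13 alternatives, and all 18 called serpins kept their direction in all of those in which they were fitted. The plot of genotype differences gives each library beside the fitted value.

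**Figure D2:**
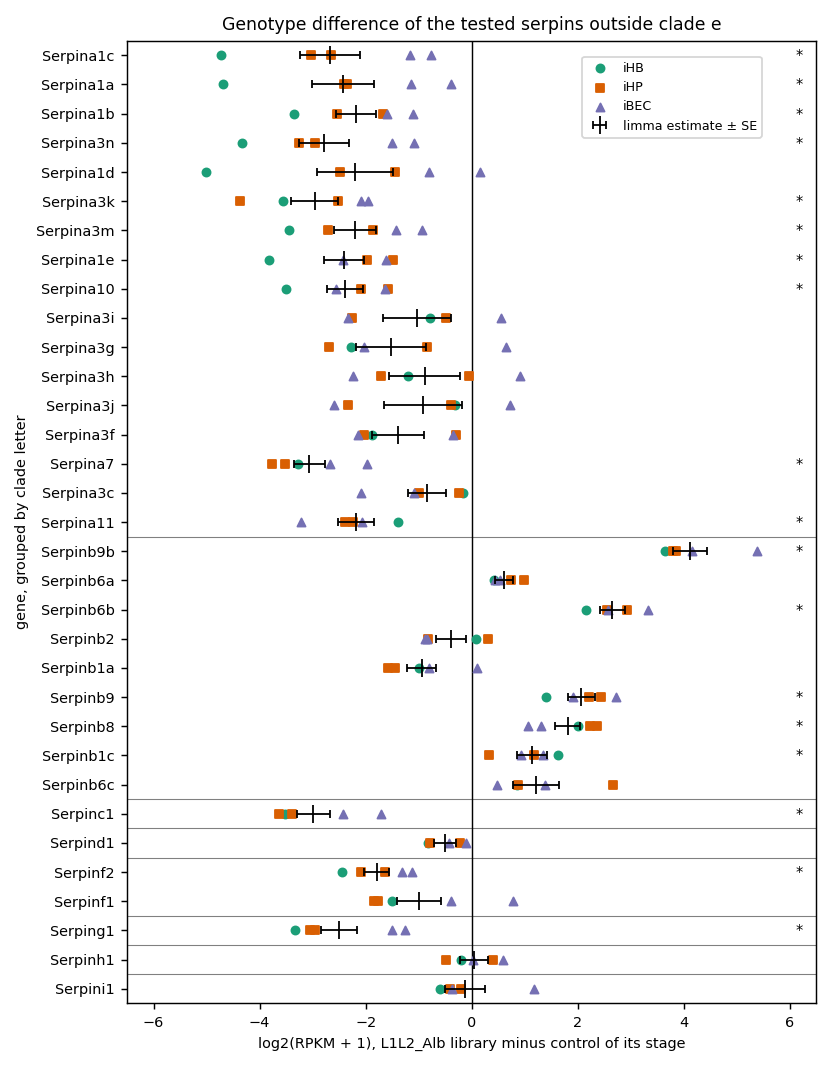
Log2(RPKM + 1) of each L1L2_Alb library minus the control of its culture (circles iHB, squares iHP, triangles iBEC) for the tested serpins outside clade e, with the limma estimate and its standard error (n = 8 libraries) and an asterisk where the adjusted p was under 0.05. Clade a points lie left of 0 with few exceptions, and the points of *Serpinb9b*, *Serpinb6b*, *Serpinb9*, *Serpinb8* and *Serpinb1c* all lie right of 0.

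The *Serpina1* genes, which encode the alpha-antitrypsins that inhibit neutrophil elastase, included the 3 serpins with the highest mean over the 8 libraries (*Serpina1c*, *Serpina1a* and *Serpina1b*), although in L1L2_Alb iHB *Serpinb9b*, *Serpinh1*, *Serpinb6b* and *Serpinb6a* were above each *Serpina1* gene and in control iBEC *Serpina3n* was above *Serpina1a*. Their promoters are shown because the 5 genes are close copies, of which 4 fell and *Serpina1d* did not pass the test. The lines below give the 150 bases before each RefSeq start (build GRCm38.p6), 5′ to 3′ on the gene's strand, with the motif GTTAAT, part of the site of the liver factor HNF1, in capitals.
Serpina1a, chr12:103863620-103863769 (minus strand): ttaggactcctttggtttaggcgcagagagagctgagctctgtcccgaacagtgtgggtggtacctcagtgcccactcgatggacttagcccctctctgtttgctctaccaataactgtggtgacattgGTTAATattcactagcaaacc
Serpina1b, chr12:103738190-103738339 (minus strand): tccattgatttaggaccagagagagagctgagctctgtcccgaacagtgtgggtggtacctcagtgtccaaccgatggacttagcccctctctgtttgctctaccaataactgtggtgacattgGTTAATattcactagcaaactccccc
Serpina1c, chr12:103904951-103905100 (minus strand): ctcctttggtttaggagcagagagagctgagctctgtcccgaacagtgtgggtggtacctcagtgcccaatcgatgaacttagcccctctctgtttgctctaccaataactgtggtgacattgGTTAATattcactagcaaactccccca
Serpina1d, chr12:103773634-103773783 (minus strand): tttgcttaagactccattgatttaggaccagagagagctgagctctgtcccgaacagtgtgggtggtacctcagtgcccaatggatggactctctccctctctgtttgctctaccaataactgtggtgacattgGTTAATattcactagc
Serpina1e, chr12:103956898-103957047 (minus strand): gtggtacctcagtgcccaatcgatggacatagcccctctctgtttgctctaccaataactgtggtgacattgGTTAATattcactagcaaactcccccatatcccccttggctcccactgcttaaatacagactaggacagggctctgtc
All 5 windows held the motif once, and they shared a run of 55 identical bases around it. The motif began 21, 26, 27, 16 and 78 bases before the start of *Serpina1a*, *Serpina1b*, *Serpina1c*, *Serpina1d* and *Serpina1e*. Read on both strands, GTTAAT occurred in 3.71% of 32817 windows of this length and in 8 of the 52 serpins that have a window, the other 3 being *Serpina7*, *Serpinb3b* and *Serpini2*. The motif was chosen with the values of the members known, and a match describes letters, not a bound site.

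Summed RPKM of *Serpina1a* to *Serpina1e* was 10731, 15585 and 22297 in control iHB, iHP and iBEC, against 491 in L1L2_Alb iHB, 2809 and 3167 in L1L2_Alb iHP, and 9016 and 13980.4 in L1L2_Alb iBEC. *Serpina1c* stood at 4260.0, 6327 and 7360.4 RPKM in control iHB, iHP and iBEC, at 160.3 RPKM in L1L2_Alb iHB, at 1008 and 774 RPKM in L1L2_Alb iHP, and at 3285 and 4339 RPKM in L1L2_Alb iBEC. It ranked 4 by level among all genes of control iHP and 700 in L1L2_Alb iHB. *Serpina1a* was at 3109, 4635 and 5386 RPKM in control iHB, iHP and iBEC, at 120.1 RPKM in L1L2_Alb iHB, at 910.1 and 872 RPKM in L1L2_Alb iHP, and at 2423 and 4100.1 RPKM in L1L2_Alb iBEC. Both genes were lowest in the L1L2_Alb iHB library and nearest their control in iBEC, by 1.70- to 26.6-fold below the controls for *Serpina1c* and 1.31- to 25.9-fold for *Serpina1a*. The log2 fold change was -2.67 ± 0.565 (SE, limma adjusted p = 0.0256) for *Serpina1c* and -2.42 ± 0.588 (SE, limma adjusted p = 0.0391) for *Serpina1a*. Both calls were lost under quantile normalization (adjusted p = 0.0585 and 0.103), when all genes above 0 were fitted (adjusted p = 0.0847 and 0.11) and without the iHB or the iHP libraries. They were also lost without L1L2_Alb iHP replicate 1 (adjusted p = 0.0515 and 0.0732) and without replicate 2 (adjusted p = 0.0553 and 0.0739), and that of *Serpina1a* also without L1L2_Alb iBEC replicate 1 (adjusted p = 0.0548).

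*Serpina1b* stood at 1431, 2102 and 4329 RPKM in control iHB, iHP and iBEC, at 139 RPKM in L1L2_Alb iHB, at 359 and 654 RPKM in L1L2_Alb iHP, and at 1428 and 1999.7 RPKM in L1L2_Alb iBEC. All L1L2_Alb libraries lay below the control of their culture, and the log2 fold change was -2.18 ± 0.375 (SE, limma adjusted p = 0.012). *Serpina1e* was at 341, 467 and 2875 RPKM in control iHB, iHP and iBEC, at 23.1 RPKM in L1L2_Alb iHB, at 166 and 119 RPKM in L1L2_Alb iHP, and at 536 and 933 RPKM in L1L2_Alb iBEC. Among the controls, *Serpina1e* was 8.43-fold and *Serpina1b* 3.02-fold higher in iBEC than in iHB, and *Serpina1a*, *Serpina1c* and *Serpina1d* were 1.73-, 1.73- and 1.48-fold higher, with no replicate of either control. Its genotype difference was -2.41 ± 0.383 (SE, limma adjusted p = 0.00916). *Serpina1d* did not pass the test, at -2.20 (95% confidence interval -3.85 to -0.56, adjusted p = 0.0927), and L1L2_Alb iBEC replicate 2, at 2609 RPKM, was above its control at 2347 RPKM. Without the iBEC libraries *Serpina1d* was called, at -3.27 (adjusted p = 0.0259). The levels of the single copies are uncertain, as 74.2% of the 50-base words of the *Serpina1c* transcripts and 57.6%, 50.9%, 34.6% and 29.5% of those of *Serpina1a*, *Serpina1d*, *Serpina1e* and *Serpina1b* also occur in another gene (GENCODE M21), and how such reads were counted is not given in the sources used here.

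The *Serpina3* genes are relatives of human antichymotrypsin that rise in the acute-phase response. They were split into abundant genes that fell by genotype and sparser genes, not called, in which the L1L2_Alb replicates differed more. *Serpina3n* stood at 151, 1398 and 5634 RPKM in control iHB, iHP and iBEC, at 6.55 RPKM in L1L2_Alb iHB, at 179.6 and 145 RPKM in L1L2_Alb iHP, and at 2637 and 1977 RPKM in L1L2_Alb iBEC. This gene encodes an inhibitor of granzyme B, was below its control in all 5 L1L2_Alb libraries, by 2.14- to 23.1-fold, and had a log2 fold change of -2.79 ± 0.464 (SE, limma adjusted p = 0.0107). *Serpina3k* was at 45.8, 698 and 4824 RPKM in control iHB, iHP and iBEC, at 2.97 RPKM in L1L2_Alb iHB, at 120.4 and 32.7 RPKM in L1L2_Alb iHP, and at 1138 and 1244 RPKM in L1L2_Alb iBEC. The log2 fold change of *Serpina3k*, the protease inhibitor known as contrapsin, was -2.96 ± 0.444 (SE, limma adjusted p = 0.00786), with 3.88- to 21.4-fold lower levels. *Serpina3m* stood at 84.5, 711 and 2859 RPKM in control iHB, iHP and iBEC, at 6.89 RPKM in L1L2_Alb iHB, at 195 and 107 RPKM in L1L2_Alb iHP, and at 1484 and 1062 RPKM in L1L2_Alb iBEC. *Serpina3m* had a log2 fold change of -2.20 ± 0.390 (SE, limma adjusted p = 0.0134). All 3 genes were higher in iBECs than in iHPs in both genotypes.

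**Figure D3:**
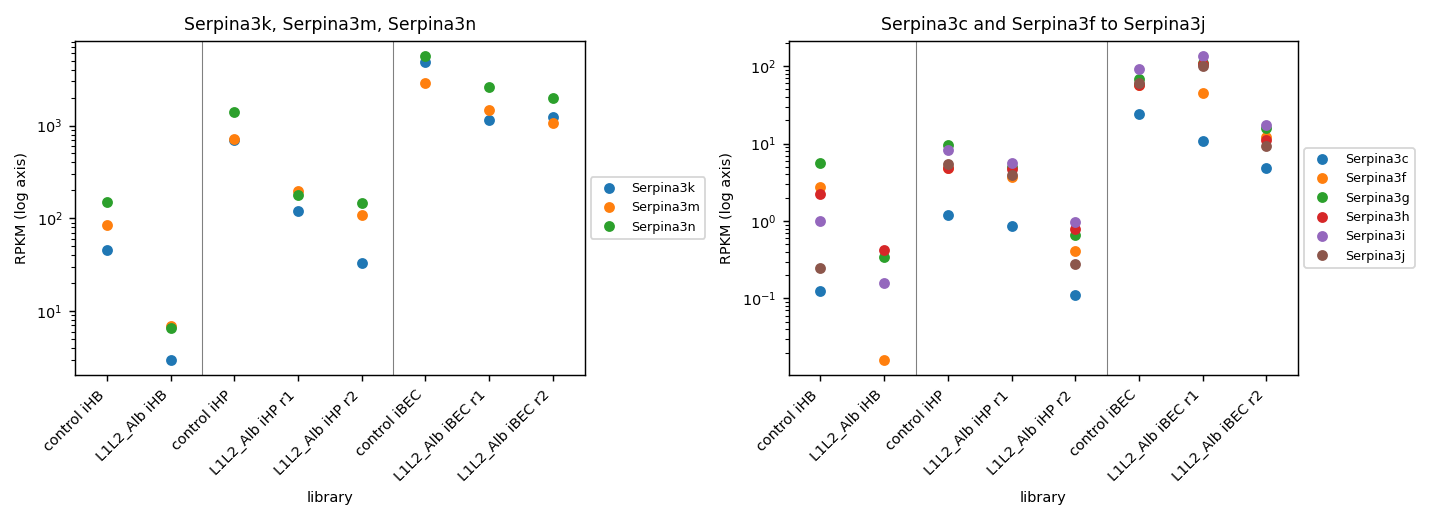
RPKM (log axis) of the tested *Serpina3* genes in each library, with the abundant *Serpina3k*, *Serpina3m* and *Serpina3n* on the left and *Serpina3c* and *Serpina3f* to *Serpina3j* on the right, and values of 0 not drawn. On the right, replicate 1 lies above replicate 2 for all 6 genes in both L1L2_Alb iHP and L1L2_Alb iBEC.

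The summed RPKM of *Serpina3f* to *Serpina3j* was 11.8, 33.1 and 336 in control iHB, iHP and iBEC, against 0.945 in L1L2_Alb iHB, 22.9 and 3.08 in L1L2_Alb iHP, and 497 and 66.3 in L1L2_Alb iBEC. In each pair, replicate 1 was thus well above replicate 2, and in iBECs it was above the control. With *Serpina3c* included, all 6 genes were higher in replicate 1, by a median of 7.68-fold in iHPs and 7.27-fold in iBECs, compared with medians of 1.53- and 1.71-fold between replicates over the 35 tested serpins in whichever direction they differed. For *Serpina3k*, *Serpina3m* and *Serpina3n* the medians were 1.82- and 1.33-fold. These 3 genes were also higher in replicate 1 of L1L2_Alb iHP, *Serpina3k* by 3.68-fold. The labels do not say that a replicate number was shared between cultures. None of the 6 genes passed the genotype test, with log2 fold changes from -0.85 for *Serpina3c* to -1.52 for *Serpina3g* and adjusted p from 0.117 for *Serpina3f* to 0.484 for *Serpina3j*. Without L1L2_Alb iBEC replicate 1, *Serpina3g*, which encodes a cytosolic cathepsin inhibitor, was called at -2.01 (adjusted p = 0.0289). RefSeq lists *Serpina3h* as a transcribed pseudogene, and 21.9% of its 50-base words occur in another gene, mostly *Serpina3i*.

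The other tested clade a genes, 3 in number, also fell. *Serpina7* stood at 11.2, 58.0 and 20.6 RPKM in control iHB, iHP and iBEC, at 0.266 RPKM in L1L2_Alb iHB, at 3.31 and 4.14 RPKM in L1L2_Alb iHP, and at 2.38 and 4.48 RPKM in L1L2_Alb iBEC. *Serpina7* encodes thyroxine-binding globulin and is on the X chromosome apart from the cluster. Every L1L2_Alb library lay below every control, a separation that was not counted over all genes. The log2 fold change of *Serpina7* was -3.06 ± 0.295 (SE, limma adjusted p = 0.00151), with 4.59- to 42.1-fold lower levels. *Serpina10* was at 42.6, 118 and 302 RPKM in control iHB, iHP and iBEC, at 2.84 RPKM in L1L2_Alb iHB, at 27.2 and 39.0 RPKM in L1L2_Alb iHP, and at 50.3 and 96.3 RPKM in L1L2_Alb iBEC. The product of *Serpina10* inhibits coagulation factor Xa with protein Z, and the log2 fold change was -2.38 ± 0.340 (SE, limma adjusted p = 0.00639). *Serpina11* stood at 1.80, 4.56 and 17.1 RPKM in control iHB, iHP and iBEC, at 0.0712 RPKM in L1L2_Alb iHB, at 0.185 and 0.0639 RPKM in L1L2_Alb iHP, and at 0.934 and 3.29 RPKM in L1L2_Alb iBEC. This sparse gene fell by 2.18 on the log2 scale (standard error 0.333, adjusted p = 0.00839), but 35.7% of its 50-base words also occur in the gene model *Gm28577*. The untested members *Serpina3a*, *Serpina3b*, *Serpina4-ps1*, *Serpina5*, *Serpina6*, *Serpina9* and *Serpina12* reached at most 1.87 RPKM, in *Serpina3b*, and include the genes of corticosteroid-binding globulin (*Serpina6*), protein C inhibitor (*Serpina5*) and vaspin (*Serpina12*).

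In clade b the rise was led by neighbouring genes on chromosome 13. The promoters of the 4 genes of this clade with the largest increases are shown to set them beside those of *Serpina1*, in the same build and direction, with capitals marking TGANTCA, the AP-1 motif.
Serpinb9b, chr13:33027264-33027413 (plus strand): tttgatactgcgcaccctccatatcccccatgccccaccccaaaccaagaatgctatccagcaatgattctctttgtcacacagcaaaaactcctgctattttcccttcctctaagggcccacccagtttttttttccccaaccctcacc
Serpinb9, chr13:33004391-33004540 (plus strand): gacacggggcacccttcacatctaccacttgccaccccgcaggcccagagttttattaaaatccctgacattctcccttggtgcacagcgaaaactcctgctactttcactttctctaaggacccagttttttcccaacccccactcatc
Serpinb6b, chr13:32965111-32965260 (plus strand): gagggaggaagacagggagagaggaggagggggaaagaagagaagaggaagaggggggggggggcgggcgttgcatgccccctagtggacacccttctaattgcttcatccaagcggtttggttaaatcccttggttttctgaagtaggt
Serpinb8, chr1:107589856-107590005 (plus strand): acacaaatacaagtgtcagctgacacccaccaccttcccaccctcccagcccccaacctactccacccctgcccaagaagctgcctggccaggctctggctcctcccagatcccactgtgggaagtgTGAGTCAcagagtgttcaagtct
The windows of *Serpinb9b* and *Serpinb9* were 66.9% identical in a global alignment. Neither the GTTAAT letters nor GGAATG, the motif of the TEAD factors that bind YAP and TAZ, nor the AP-1 motif TGANTCA occurred in the windows of *Serpinb9b*, *Serpinb9* and *Serpinb6b* on either strand, and *Serpinb8* held the AP-1 motif 23 bases before its start. Over all windows, TGANTCA occurred in 4.24% and GGAATG in 7.58%, with 7 of 52 serpins each. Absence of these letters from a window says nothing of sites elsewhere.

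Summed over its 27 members, clade b was at 378, 415 and 335 RPKM in control iHB, iHP and iBEC, at 1285 RPKM in L1L2_Alb iHB, at 1816 and 1963 RPKM in L1L2_Alb iHP, and at 652 and 1037 RPKM in L1L2_Alb iBEC, above the control in every library. *Serpinb9b* stood at 48.5, 65.2 and 10.5 RPKM in control iHB, iHP and iBEC, at 618 RPKM in L1L2_Alb iHB, at 950.5 and 921 RPKM in L1L2_Alb iHP, and at 204 and 477 RPKM in L1L2_Alb iBEC. Every L1L2_Alb library was above every control, by 12.7- to 45.2-fold against the control of its culture, with a log2 fold change of 4.11 ± 0.318 (SE, limma adjusted p = 0.000827). By level, the gene ranked 5994 among all genes in control iBEC and 266 in L1L2_Alb iBEC replicate 2. *Serpinb6b* was at 77.5, 75.1 and 17.0 RPKM in control iHB, iHP and iBEC, at 347 RPKM in L1L2_Alb iHB, at 446 and 577 RPKM in L1L2_Alb iHP, and at 105 and 180.0 RPKM in L1L2_Alb iBEC. The ranges of the genotypes did not overlap here either, and the log2 fold change was 2.65 ± 0.241 (SE, limma adjusted p = 0.00134), 4.48- to 10.6-fold by library. *Serpinb9* stood at 5.94, 7.29 and 2.84 RPKM in control iHB, iHP and iBEC, at 17.4 RPKM in L1L2_Alb iHB, at 37.4 and 43.9 RPKM in L1L2_Alb iHP, and at 13.4 and 24.3 RPKM in L1L2_Alb iBEC. *Serpinb9*, which inhibits granzyme B, was likewise above all controls in every L1L2_Alb library, by 2.93- to 8.56-fold, with a log2 fold change of 2.07 ± 0.260 (SE, limma adjusted p = 0.00418). How many of all genes separate by genotype in this way was not counted. *Serpinb8* was at 6.94, 3.26 and 2.58 RPKM in control iHB, iHP and iBEC, at 30.6 RPKM in L1L2_Alb iHB, at 18.9 and 20.9 RPKM in L1L2_Alb iHP, and at 7.84 and 6.51 RPKM in L1L2_Alb iBEC. *Serpinb8*, an inhibitor of furin on chromosome 1, rose by 1.81 ± 0.239 (SE, limma adjusted p = 0.00494) on the log2 scale, and its L1L2_Alb iBEC replicate 2 lay below control iHB. The 6 macrophage markers gave 0 calls, with a median log2 fold change of -0.04, and none of them was at 0 in any library. Their summed level, carried mostly by *Lyz2*, was 2045, 1368 and 1137 RPKM in control iHB, iHP and iBEC, 1667 RPKM in L1L2_Alb iHB, 661 and 1243 RPKM in L1L2_Alb iHP, and 2485 and 2686 RPKM in L1L2_Alb iBEC. It was below the control in iHB and iHP and above it in iBEC, and its part in the clade b levels was not tested.

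**Figure D4:**
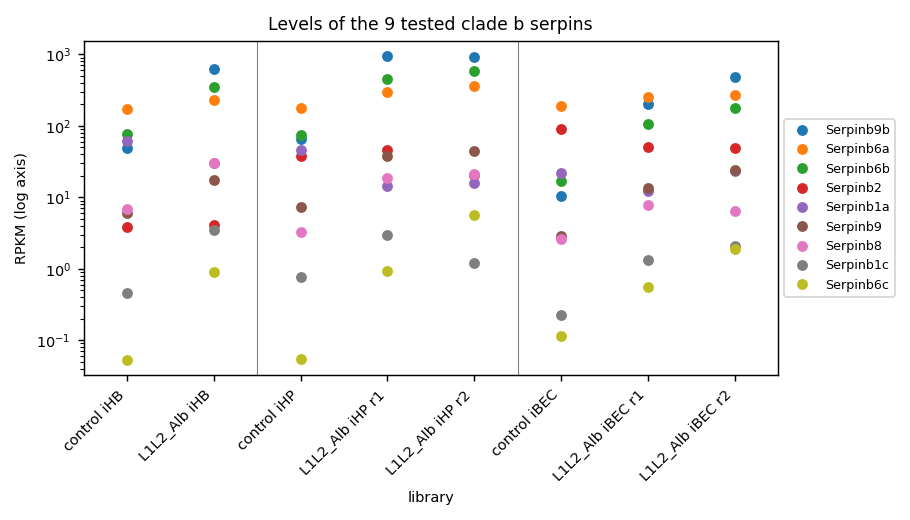
RPKM (log axis) of the 9 tested clade b serpins in the 8 libraries, with vertical lines between the cultures. *Serpinb9b* rises from 48.5, 65.2 and 10.5 RPKM in the controls to 204 to 950.5 RPKM in the L1L2_Alb libraries, while *Serpinb1a* and *Serpinb2* do not follow it.

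*Serpinb1c*, *Serpinb6b*, *Serpinb9* and *Serpinb9b* lie next to each other on chromosome 13 in the RefSeq order, with no other protein-coding gene between them. All 4 were called higher, *Serpinb1c* with the limits given below. *Serpinb1c* stood at 0.461, 0.760 and 0.226 RPKM in control iHB, iHP and iBEC, at 3.51 RPKM in L1L2_Alb iHB, at 2.99 and 1.20 RPKM in L1L2_Alb iHP, and at 1.33 and 2.10 RPKM in L1L2_Alb iBEC. Each control was under 1 RPKM, so the gene entered the test only through the L1L2_Alb libraries. At these low levels *Serpinb1c* had a log2 fold change of 1.13 ± 0.284 (SE, limma adjusted p = 0.0444). The call was lost in 7 of its 12 alternatives, among them when all genes above 0 were fitted. Others of the 7 were the fits without L1L2_Alb iHP replicate 1 (adjusted p = 0.0902), without L1L2_Alb iBEC replicate 1 (adjusted p = 0.0547) and without L1L2_Alb iBEC replicate 2 (adjusted p = 0.101). The next genes along the cluster, *Serpinb1b*, *Serpinb9c*, *Serpinb9d*, *Serpinb9e*, *Serpinb9f*, *Serpinb9g*, *Serpinb6d* and *Serpinb6e*, were not tested and reached at most 0.537 RPKM, in *Serpinb1b*. At its far end, *Serpinb6c* and *Serpinb6a* were measured again. On chromosome 12, 2 stretches lay between *Serpina1b* to *Serpina11* and *Serpina3k* to *Serpina3n*, as the plot in gene order shows. The first was the silent or sparse stretch from *Serpina9* to *Serpina3b*. The next held *Serpina3c* and *Serpina3f* to *Serpina3j*, which were tested but not called. Shared sequence was small for the called clade b genes, from 0.165% of 50-base words for *Serpinb8* to 6.28% for *Serpinb1c*.

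**Figure D5:**
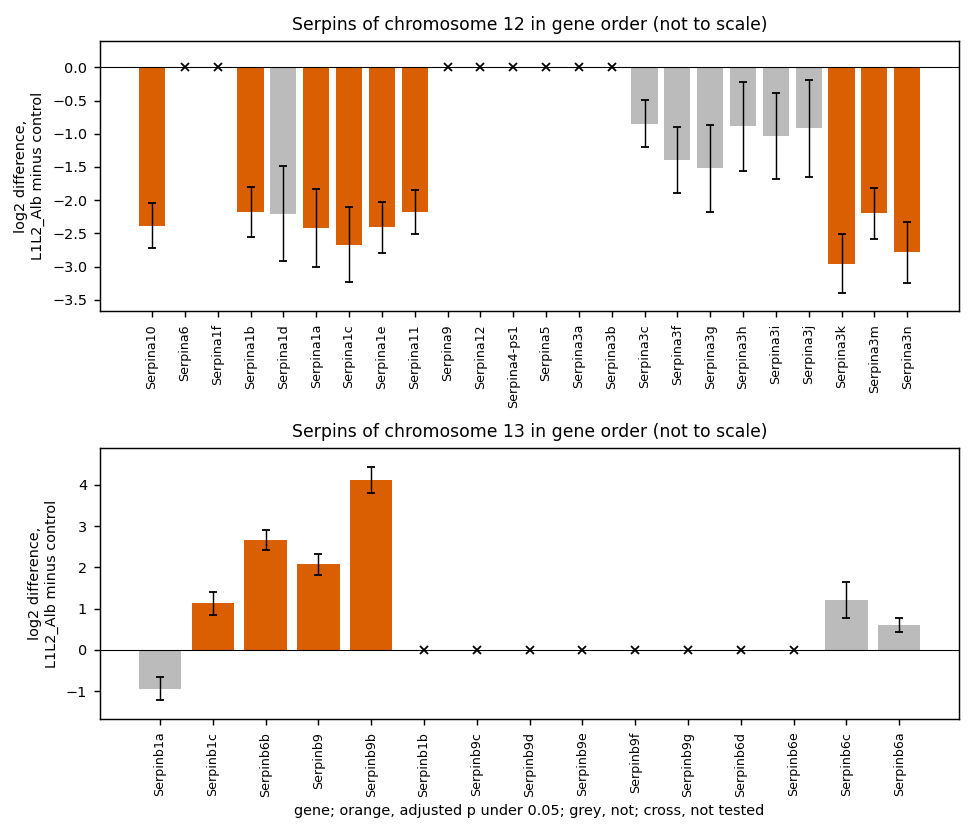
Log2 fold change of L1L2_Alb against control (bars, with the limma standard error, n = 8 libraries) for the serpins of chromosomes 12 and 13 in RefSeq order, evenly spaced; orange bars had an adjusted p under 0.05, grey bars did not, and crosses mark genes not tested. The 4 orange bars of chromosome 13 are next to each other, and all bars of chromosome 12 point down.

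The other tested clade b genes did not pass the genotype test. *Serpinb6a* stood at 173, 178 and 188 RPKM in control iHB, iHP and iBEC, at 232 RPKM in L1L2_Alb iHB, at 297 and 356 RPKM in L1L2_Alb iHP, and at 256 and 272 RPKM in L1L2_Alb iBEC. *Serpinb6a*, whose human counterpart inhibits cathepsin G, was above all controls in every L1L2_Alb library, by 1.34- to 2.00-fold against the control of its culture. This separation was not counted over all genes. The gene was not called, with a log2 fold change of 0.61 (95% confidence interval 0.21 to 1.005, limma adjusted p = 0.0663). *Serpinb2* was at 3.87, 37.4 and 91.6 RPKM in control iHB, iHP and iBEC, at 4.12 RPKM in L1L2_Alb iHB, at 46.3 and 20.7 RPKM in L1L2_Alb iHP, and at 50.5 and 49.0 RPKM in L1L2_Alb iBEC. *Serpinb2* encodes the plasminogen activator inhibitor of macrophages and keratinocytes, was close to its control in iHB and below it in both iBEC libraries, and had a log2 fold change of -0.39 (95% confidence interval -1.04 to 0.26, adjusted p = 0.441). *Serpinb6c* stood at 0.0529, 0.0538 and 0.113 RPKM in control iHB, iHP and iBEC, at 0.892 RPKM in L1L2_Alb iHB, at 0.939 and 5.69 RPKM in L1L2_Alb iHP, and at 0.553 and 1.90 RPKM in L1L2_Alb iBEC. *Serpinb6c* was covered by 2 reads in control iHB and in control iHP, so no fold is given there, and its log2 fold change was 1.21 (95% confidence interval 0.21 to 2.22, adjusted p = 0.122). With a pseudocount of 0.1 it was called, at 3.07 (adjusted p = 0.0441).

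*Serpinb1a* stood at 60.4, 45.2 and 21.7 RPKM in control iHB, iHP and iBEC, at 29.9 RPKM in L1L2_Alb iHB, at 14.51 and 16.0 RPKM in L1L2_Alb iHP, and at 12.05 and 23.3 RPKM in L1L2_Alb iBEC. *Serpinb1a*, an inhibitor of the elastase and cathepsin G of neutrophils, had a log2 fold change of -0.95 (95% confidence interval -1.59 to -0.30, adjusted p = 0.0717) and was called lower in 4 alternatives: with upper-quartile scaling (adjusted p = 0.0469) and quantile normalization (adjusted p = 0.0361), and without L1L2_Alb iBEC replicate 2 (adjusted p = 0.028) or the iBEC libraries (adjusted p = 0.0224). The 5 neutrophil markers (*Mpo*, *Elane*, *Prtn3*, *Ctsg* and *S100a8*) were also lower in sum, but not in step with it. Their summed level was 5084, 3369 and 1483 RPKM in control iHB, iHP and iBEC, 2123 RPKM in L1L2_Alb iHB, 173 and 26.3 RPKM in L1L2_Alb iHP, and 55.6 and 1080.5 RPKM in L1L2_Alb iBEC. All 5 had negative log2 fold changes, 0 of 5 were called, and none was at 0 in more than 1 library. The sum was below the control in every L1L2_Alb library, whereas *Serpinb1a* was above its control in L1L2_Alb iBEC replicate 2. In L1L2_Alb iHP the sum was higher in replicate 1 and *Serpinb1a* in replicate 2. The part of these markers in the level of *Serpinb1a* was not tested. *Serpinb10*, which is not in the test, ran from 0.959 and 1.90 RPKM in control iHB and iHP to 0.0556 and 0 RPKM in L1L2_Alb iHP. The remaining untested clade b genes above 0 were *Serpinb5* (maspin), *Serpinb7*, *Serpinb11* and *Serpinb12*, none over 0.512 RPKM.

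*Serpinc1*, *Serpinf2* and *Serping1*, of clades c, f and g, fell with clade a, and *Serpinf1* of clade f was not called. *Serpinc1* stood at 22.4, 84.0 and 303 RPKM in control iHB, iHP and iBEC, at 1.05 RPKM in L1L2_Alb iHB, at 7.15 and 5.86 RPKM in L1L2_Alb iHP, and at 55.4 and 92.0 RPKM in L1L2_Alb iBEC. *Serpinc1* encodes antithrombin, which inhibits thrombin and factor Xa, and its log2 fold change was -2.99 ± 0.314 (SE, limma adjusted p = 0.00222), 3.30- to 21.4-fold lower by library. *Serping1* was at 42.1, 105 and 211 RPKM in control iHB, iHP and iBEC, at 3.29 RPKM in L1L2_Alb iHB, at 11.7 and 12.5 RPKM in L1L2_Alb iHP, and at 87.1 and 73.7 RPKM in L1L2_Alb iBEC. The gene for the inhibitor of C1r, C1s and plasma kallikrein, *Serping1*, had a log2 fold change of -2.51 ± 0.334 (SE, limma adjusted p = 0.00498). *Serpinf2* stood at 88.5, 215 and 339.8 RPKM in control iHB, iHP and iBEC, at 15.3 RPKM in L1L2_Alb iHB, at 49.6 and 68.5 RPKM in L1L2_Alb iHP, and at 135 and 155 RPKM in L1L2_Alb iBEC. Antiplasmin, the product of *Serpinf2*, is the main inhibitor of plasmin, and its gene fell with a log2 fold change of -1.79 ± 0.240 (SE, limma adjusted p = 0.00515). *Serpind1* was at 8.96, 11.5 and 10.3 RPKM in control iHB, iHP and iBEC, at 4.64 RPKM in L1L2_Alb iHB, at 6.30 and 9.67 RPKM in L1L2_Alb iHP, and at 9.41 and 7.36 RPKM in L1L2_Alb iBEC. *Serpind1* (heparin cofactor), which also inhibits thrombin, differed by -0.51 (95% confidence interval -0.998 to -0.02, adjusted p = 0.177) and did not pass, although each L1L2_Alb library was below its control.

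The tests of *Serpine2*, *Serpinh1*, *Serpinf1* and *Serpini1* gave no call. *Serpine2* was at 90.6, 106 and 119 RPKM in control iHB, iHP and iBEC, at 98.9 RPKM in L1L2_Alb iHB, at 84.0 and 129 RPKM in L1L2_Alb iHP, and at 187 and 167 RPKM in L1L2_Alb iBEC. For *Serpine2* (protease nexin), which inhibits thrombin and urokinase, the log2 fold change was 0.23 (95% confidence interval -0.24 to 0.70, adjusted p = 0.538). *Serpinh1* stood at 399, 236 and 219 RPKM in control iHB, iHP and iBEC, at 349 RPKM in L1L2_Alb iHB, at 168 and 313 RPKM in L1L2_Alb iHP, and at 328 and 223 RPKM in L1L2_Alb iBEC. The collagen chaperone *Serpinh1* differed by 0.04 (95% confidence interval -0.54 to 0.63, adjusted p = 0.941), and its sign changed with the scaling. *Serpinf1* was at 195, 139 and 73.3 RPKM in control iHB, iHP and iBEC, at 67.9 RPKM in L1L2_Alb iHB, at 38.0 and 40.2 RPKM in L1L2_Alb iHP, and at 127 and 55.5 RPKM in L1L2_Alb iBEC. *Serpinf1* (PEDF), a secreted member that does not inhibit proteases, was lower in iHB and iHP and had a log2 fold change of -0.996 (95% confidence interval -1.93 to -0.06, adjusted p = 0.166). Without L1L2_Alb iBEC replicate 1 it was called, at -1.29 (adjusted p = 0.0301). *Serpini1* stood at 1.02, 1.17 and 1.26 RPKM in control iHB, iHP and iBEC, at 0.334 RPKM in L1L2_Alb iHB, at 0.641 and 0.899 RPKM in L1L2_Alb iHP, and at 4.08 and 0.7497 RPKM in L1L2_Alb iBEC. Neuroserpin, the product of *Serpini1*, was sparse, highest in L1L2_Alb iBEC replicate 1, with a log2 fold change of -0.13 (95% confidence interval -0.98 to 0.72, adjusted p = 0.871). *Serpine3* was not tested (at most 0.433 RPKM).

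In sum, mesenchymal markers were above or below their controls in the same libraries as *Serpinf1*. The summed level of the 6 markers (*Col1a1*, *Col3a1*, *Pdgfrb*, *Des*, *Acta2* and *Dcn*) was 3348, 2144 and 2003 RPKM in control iHB, iHP and iBEC, 1223 RPKM in L1L2_Alb iHB, 574 and 911 RPKM in L1L2_Alb iHP, and 2696 and 1296 RPKM in L1L2_Alb iBEC. As for *Serpinf1*, L1L2_Alb iBEC replicate 1 was the only L1L2_Alb library in which the sum was above its control. *Des* alone was above its control in both L1L2_Alb iBEC libraries, at 66.9 and 25.8 against 16.9 RPKM. All 6 had negative log2 fold changes, 0 of 6 were called, and none was at 0 in any library. Their part in the *Serpinf1* levels was not tested.

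The cultures were then compared with each other, with the genotype as a block. From iHB to iHP, all 17 tested clade a genes had positive log2 differences, with a median of 1.74, but 0 serpins and 0% of all genes were called by limma. At an unadjusted p under 0.05 there were 14 serpins and 1158 genes. The smallest adjusted p among the serpins was that of *Serpinb2*, at 2.83 (standard error 0.356, adjusted p = 0.0741), and next came *Serpina3m*, at 3.62 (adjusted p = 0.0777). Among the controls alone, each with 1 library, *Serpina3k* was 15.2-fold, *Serpina3n* 9.23-fold and *Serpina3m* 8.41-fold higher in iHP than in iHB, against 1.29- to 1.49-fold for *Serpina1a* to *Serpina1e*. *Serpina7* was the clade a gene that peaked in iHP, at 58.0 RPKM.

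From iHB to iBEC, of the 35 tested, 18 were called higher and 2 lower, against 2.94% and 2.78% of all genes, and the median log2 difference of all genes was -0.25 (-0.01 after upper-quartile scaling). The 18 were 14 clade a genes, including all 9 tested *Serpina3* genes, with *Serpinc1*, *Serpinf2*, *Serping1* and *Serpinb2*. The hepatocyte markers *Alb*, *Ttr*, *Apoa1*, *Hnf4a* and *Tat* were also highest in control iBEC among the controls, and *Afp* was lowest there. The part of these markers in the serpin differences between cultures was not tested. *Serpina3c* was at most 1.20 RPKM in the iHB and iHP libraries and entered the test only through the iBEC libraries. *Serpina3k* had the largest difference of the serpins, 7.61 ± 0.554 (SE, limma adjusted p = 0.000612), followed by *Serpina3n*, 6.97 ± 0.579 (SE, limma adjusted p = 0.0009), and *Serpina3m*, 6.36 ± 0.486 (SE, limma adjusted p = 0.00065). *Serpinb2* rose by 3.70 ± 0.356 (SE, limma adjusted p = 0.00148) on the log2 scale, from 3.87 RPKM in control iHB to 91.6 RPKM in control iBEC, and *Serpinc1* by 4.58 ± 0.392 (SE, limma adjusted p = 0.00108). The genes called lower were *Serpinb6b*, -1.68 ± 0.301 (SE, limma adjusted p = 0.0177), and *Serpinb8*, -1.66 ± 0.298 (SE, limma adjusted p = 0.0178). *Serpinb9b* had a similar difference that did not pass, -1.43 (95% confidence interval -2.34 to -0.52, adjusted p = 0.079). Of the *Serpina1* genes, *Serpina1a* and *Serpina1d* missed the threshold (adjusted p = 0.0524 and 0.0798), and so did *Serpina7* at 1.42 (95% confidence interval 0.57 to 2.26, adjusted p = 0.0644), *Serpind1* at 0.49 (95% confidence interval -0.12 to 1.10, adjusted p = 0.282) and *Serpinf1* at -0.35 (95% confidence interval -1.52 to 0.82, adjusted p = 0.692). The share of all calls that were higher was 51.4% as deposited, 72.8% with upper-quartile scaling and 65.3% when quantile-normalized.

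The L1L2_Alb iHPs and iBECs were the only groups with 2 libraries each. In iBECs 8 serpins were higher and 1 was lower, against 3.11% and 0.461% of 13234 genes. The higher genes were *Serpina1c*, *Serpina1e*, *Serpina3c*, *Serpina3k*, *Serpina3m*, *Serpina3n*, *Serpinc1* and *Serping1*. Of these, *Serpina3c* was at 0.867 and 0.111 RPKM in L1L2_Alb iHP and entered this test only through the iBEC libraries. The largest difference among them was that of *Serpina3k*, 4.22 ± 0.575 (SE, limma adjusted p = 0.0162), and the smallest adjusted p that of *Serpina3n*, 3.82 ± 0.364 (SE, limma adjusted p = 0.0065). *Serpinb6b* was lower, -1.87 ± 0.377 (SE, limma adjusted p = 0.0456), and *Serpinb8* and *Serpinb9b* had negative differences that did not pass (-1.36, adjusted p = 0.0505, and -1.58, adjusted p = 0.118). Leaving out 1 library left 3 serpins higher without L1L2_Alb iHP replicate 1, 0 without iHP replicate 2, 2 without iBEC replicate 1 and 11 without iBEC replicate 2, and 0 lower in each case. This comparison shares its libraries with the genotype test.

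Whether the genotype difference itself varied between the cultures was tested by an F test with 2 residual degrees of freedom. No serpin and 0% of all genes were called by limma, with a smallest adjusted p of 0.496 among serpins and 0.122 among all genes. At an unadjusted p under 0.05 there were 5 serpins (*Serpina1a*, *Serpina1c*, *Serpina1d*, *Serpina3n* and *Serping1*) and 733 genes. In all 5, the L1L2_Alb iHB library was the one farthest below its control. The median log2 difference of the 17 clade a genes from the control was -3.35 in L1L2_Alb iHB, -2.08 and -2.33 in L1L2_Alb iHP, and -1.09 and -1.95 in L1L2_Alb iBEC.

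The proteases, cofactors and receptors that serpins act on or with were read from a list of 35 genes, of which 32 were tested. Of these, 13 fell and 4 rose, against 3.37% and 6.2% of all genes, with a median log2 fold change of -1.20. Among the 7 tested coagulation and kinin proteases 6 fell, and among the 4 complement proteases 3 fell and 1 (*Masp1*) rose. Among the granule and lysosomal proteases, 0 of 7 were called. *Vtn* was at 173, 406 and 780.0 RPKM in control iHB, iHP and iBEC, at 4.05 RPKM in L1L2_Alb iHB, at 22.7 and 24.6 RPKM in L1L2_Alb iHP, and at 187 and 217 RPKM in L1L2_Alb iBEC. Vitronectin, the product of *Vtn*, is an adhesion glycoprotein of plasma and matrix, and the log2 fold change was -3.57 ± 0.475 (SE, limma adjusted p = 0.00498). *Plg* was at 36.6, 183 and 588 RPKM in control iHB, iHP and iBEC, at 1.90 RPKM in L1L2_Alb iHB, at 33.2 and 34.9 RPKM in L1L2_Alb iHP, and at 132 and 204 RPKM in L1L2_Alb iBEC. *Plg* encodes plasminogen, the precursor of the enzyme that antiplasmin inhibits, and fell with a log2 fold change of -2.55 ± 0.317 (SE, limma adjusted p = 0.00411). The contact factor gene *F12* had a log2 fold change of -2.59 ± 0.407 (SE, limma adjusted p = 0.00902), *C1s* of -2.51 ± 0.604 (SE, limma adjusted p = 0.0381), the membrane protease gene *Hpn* of -1.99 ± 0.396 (SE, limma adjusted p = 0.0208) and the coagulation factor gene *F9* of -1.77 ± 0.221 (SE, limma adjusted p = 0.00411). *Elane*, *Prtn3* and *Ctsg*, which are in this list and among the neutrophil markers above, had log2 fold changes from -3.32 to -2.27 and adjusted p from 0.0588 to 0.084.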

How the data were processed

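Total RNA of the 8 cultures was made into TruSeq v2 libraries and sequenced on a HiSeq 2000. The submitters' processing notes name Bowtie 0.12.2 and the build mm8; how reads were counted, whether by strand, and with which annotation is not given in the sources used here. The values that the authors deposited are RPKM, not scaled further between libraries. The unit was read from the values, which changed in whole steps for genes of fixed length. These steps gave the library sizes and whole reads (within 0.02 reads) for 81.1% of 17774 genes above 0 in at least 4 libraries. PCR duplicates could not be seen, so depth covers counting error only.

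Of 23471 entries, 4 of 2 repeated symbols were left out. Values were changed to log2(RPKM + 1), and fold changes on that scale understate those of low genes. Genes averaging 1 RPKM or more in the libraries used entered limma (version 3.58.1, R 4.3.3, lmFit and trended eBayes), with Benjamini-Hochberg adjustment over all of them and a two-sided threshold of 0.05: culture and genotype in 1 additive model, their interaction on the 6 conditions, and L1L2_Alb iBEC minus iHP on 4 libraries. A single culture has 1 control and no test. No count model was run. Only the additive model was tried on simulated data, with independent noise and a genotype difference that was the same in every culture. That trial does not cover the other tests or a difference that varies between cultures. Tables and figures were made with pandas 2.3.3, numpy 2.4.6 and matplotlib 3.10.9 (Python 3.11.15).

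The members, gene lists and motifs were chosen with earlier results of these data known. Values in all libraries are given for called serpins, at most 14 by size of change, for the 3 most abundant of clades a and b, and for the tested members of clades c to i, of which 1 is not reported here; the remaining called or tested clade b genes, *Serpina1d* and the sparse *Serpina3* genes were added after their values were seen. Of the proteases and partners, the 6 largest called changes are named. Promoter windows are RefSeq, GRCm38.p6, and 52 of the 63 symbols had one. No coordinates of the mm8 files were used. Alternatives were a pseudocount of 0.1, upper-quartile scaling, quantile normalization, no filter, a filter at a mean of 5 RPKM, untrended eBayes, fits without 1 L1L2_Alb library of a pair or without 1 culture, and the replicate number as a block. The deviations of same-numbered libraries had a correlation of r = -0.02 over 13234 genes. That value does not show whether same-numbered libraries shared a culture or embryo, and the labels do not say.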

Additional observations from a re-analysis of the deposited data

Results flagged for a closer look

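*Serpinb2* drew attention because its libraries moved in opposite directions in 2 cultures. The L1L2_Alb iHB library was above its control (log2 difference 0.07) and both L1L2_Alb iBEC libraries were below theirs (mean log2 difference -0.87), a gap of -0.94 between the cultures. *Serpinh1* showed the reverse, with the L1L2_Alb iHB library below its control (log2 difference -0.19) and both L1L2_Alb iBEC libraries above theirs (mean log2 difference 0.30), a gap of 0.50. These gaps were not tested by themselves for a pair of cultures. The interaction test over the 3 cultures gave an adjusted p of 1 for *Serpinb2* and *Serpinh1* (limma). Each of the cultures has 1 control library, and iHB has 1 L1L2_Alb library. The iHB differences were 1.07-fold for *Serpinb2* and 1.14-fold for *Serpinh1*. Replicates of L1L2_Alb iHP differed by 2.24- and 1.86-fold for these genes, and those of iBEC by 1.03- and 1.47-fold. The iBEC log2 differences of *Serpinh1* were 0.58 in replicate 1 and 0.03 in replicate 2.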

How the results depend on the processing

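Of 446 settings of single serpins, 394 left direction and call as they were, 35 ended a call and 9 made one. Direction turned only in genes without a call: *Serpine2* was -0.0081 after quantile normalization, *Serpinh1* was -0.040 after upper-quartile scaling, -0.17 after quantile normalization, -0.11 without the iBEC libraries and -0.084 to 0.185 with single libraries left out, and *Serpini1* was 0.050 without the iHB libraries and -0.141 to 0.051 with single libraries left out.

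For genotype, 2 serpins were higher and 2 lower without the iHP libraries, and 7 lower without the iHB libraries, where fewer libraries were fitted. Over all genes, the 832 higher and 452 lower became 475 and 211 without a filter, 227 and 99 without iHB, 113 and 19 without iHP, and 545 and 904 without iBEC; single libraries left out gave 479 to 875 higher and 235 to 439 lower. From iHB to iBEC, 1 serpin was lower after upper-quartile scaling, 1 after quantile normalization and 1 without a filter. Over all genes the 373 lower became 183, 264 and 209 there, and 1221 without L1L2_Alb iHP replicate 2. In L1L2_Alb iBEC against iHP, 0 serpins were higher and 0 lower without a filter, 0 were lower after upper-quartile scaling and 2 with a filter of mean 5. Leaving out 1 library gave 0 to 11 higher and 0 to 0 lower. With the replicate number as a block, a pairing that the labels do not state and the correlation did not settle, 17 were higher and 3 lower. The cause of these shifts was not tested. With 1 control per culture and 2 to 4 residual degrees of freedom, small changes cannot be seen, and values of under 3 reads (about 0.05 to 0.08 RPKM for a gene of 2000 bases) are at the floor.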

Other observations

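The copies of *Serpina1* did not keep fixed shares of their sum. *Serpina1b* made up 13.3% of the summed RPKM of *Serpina1a* to *Serpina1e* in control iHB and 28.4% in L1L2_Alb iHB, and *Serpina1e* 3.18% in control iHB, 3.00% in control iHP and 12.9% in control iBEC. *Serpina1c* ran from 24.4% in L1L2_Alb iHP replicate 2 to 40.6% in control iHP. These shares rest on single libraries and on copies that share much of their sequence, and they were not tested. Of the marker lists not described above, 1 of 2 tested erythroid markers (*Hbb-b1*) was called lower and 0 of 2 tested endothelial markers were called, with *Pecam1* at an adjusted p of 0.0757 and *Kdr* at 0.0542 (limma).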
